A study of Drosophila melanogaster with 12 samples.

Results

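The 10 genes described here form the core of the *Drosophila* Notch pathway: the receptor *Notch* (*N*), its ligands *Delta* (*Dl*) and *Serrate* (*Ser*), the nuclear factors *Suppressor of Hairless* (*Su(H)*), *Hairless* (*H*) and *mastermind* (*mam*), and *neuralized* (*neur*), *nicastrin* (*nct*), *kuzbanian* (*kuz*) and *fringe* (*fng*). They are listed by name and no measured value enters the rule, although the list was drawn up with earlier results of these data known, and all 10 were found by symbol among the 14977 genes of the table. Each gene was measured by miCLIP, in which RNA fragments crosslinked to an antibody against N6-methyladenosine (m6A, a methyl mark on adenosines within mRNA) are sequenced, and by mRNA-seq. Aliquots of the same RNA went into both assays. Whole embryos were mass-collected over 0 to 45 min (T1), 45 to 90 min (T2) and 1.5 to 6 h (T3), then over 6 to 12 h (T4), 12 to 18 h (T5) and 18 to 24 h (T6), and each of these 6 timepoints has 1 miCLIP and 1 mRNA-seq library of polyA RNA, which gives 12 libraries. No mutation or treatment is given for any of them, and the strain is Canton S in the growth protocol and yw in the strain entry.

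In Notch signalling, a ligand on one cell binds the receptor on its neighbour, and the receptor is then cut outside the membrane and again within it. The freed intracellular part enters the nucleus and joins the DNA-binding protein Su(H) and the co-activator Mastermind at target genes, which are otherwise held down by Su(H) with Hairless. In the fly embryo the pathway is known for lateral inhibition, in which cells of the neurogenic ectoderm that become neural precursors keep their neighbours from doing so, and it later acts in asymmetric divisions, muscle progenitors and epithelial boundaries.

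Values are FPKM, the reads on a gene divided by its length and scaled by a factor of the library, and the number of reads behind each value was recovered from its steps. The miCLIP libraries held 4251686 to 14484576 reads on genes and the mRNA-seq libraries 23127955 to 25486971. With 1 library per assay and timepoint, a difference within a timepoint or between timepoints has no replicate error and no test, so "higher" and "lower" compare libraries there, and the intervals given are 95% exact Clopper-Pearson intervals that cover counting error only. Most stage markers followed the labels in mRNA-seq: 3 of 4 maternal genes were highest in T1 or T2 (the exception was *gcl*), 3 of 4 blastoderm genes in T3 (the exception was *h*), and all 3 muscle and all 4 cuticle genes found in the table in T5 or T6. The neural and glial markers were split, with *elav* and *repo* highest in T4 and *nSyb* and *brp* in T6. The miCLIP T1 and T6 libraries stood apart. Over 4802 genes miCLIP T1 had a Spearman correlation of 0.59 with mRNA-seq T1, its nearest, and miCLIP T6 one of 0.78 with mRNA-seq T5 and of 0.64 with mRNA-seq T6. In the other timepoints the correlation with the same timepoint was 0.77 to 0.87, although miCLIP T2 (0.79) was slightly closer to mRNA-seq T1 (0.81). In addition, *Osi6*, a gene of the cuticle list, had 4612 FPKM in miCLIP T6 and 7.41 FPKM in mRNA-seq T6, beside 2849 FPKM in mRNA-seq T5. Counts and medians of T6 are therefore also given without it or against mRNA-seq T5. In whole embryos, fewer cells that express a gene and less RNA per cell cannot be told apart.

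The 10 messages followed different courses in mRNA-seq. *Dl* and *neur* were highest in T3, *N*, *Ser* and *fng* in T4, and *H* and *nct* in T1, under each scaling of the libraries tried. *Su(H)* (T3), *kuz* (T4) and *mam* (T5) were highest in these timepoints as deposited and in earlier ones under other scalings, and levels compared across timepoints below are as deposited. Of these genes 8 reached an FPKM of 1 in each of the 12 libraries, and the exceptions were *Ser*, below 1 FPKM in both assays through T3, and *fng*, below 1 FPKM in both in T1 and T2. By T6 the mRNA-seq level of 4 genes (*Dl*, *N*, *neur* and *Ser*) was below 20% of its own highest value.

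**Figure D1:**
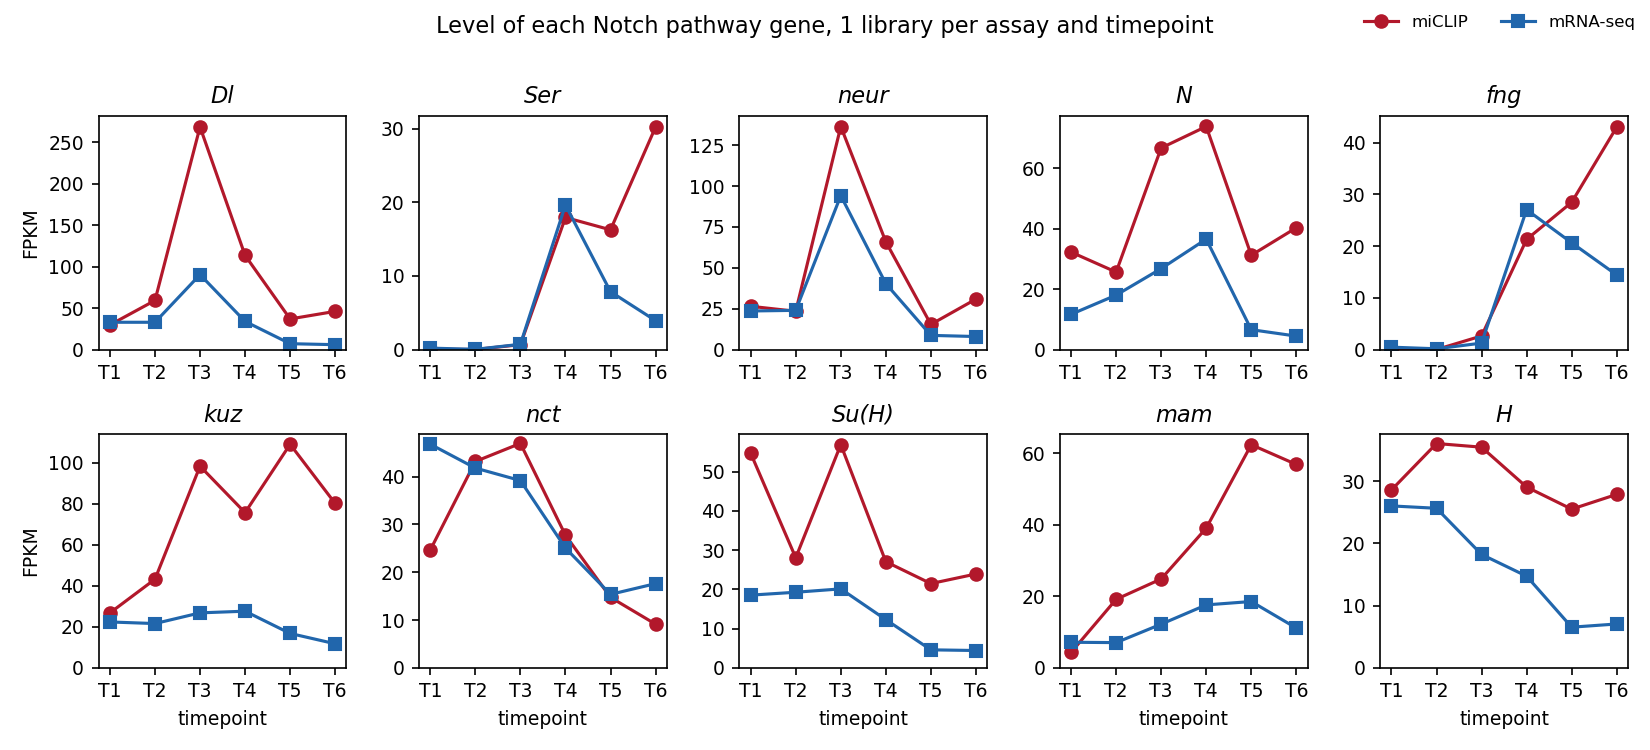
FPKM of each gene (y axis, a separate linear scale for each panel) in the 6 timepoints (x axis), with miCLIP as red circles and mRNA-seq as blue squares, 1 library per point. *Dl* and *neur* share a peak in T3 in both assays, and in T6 the miCLIP point lies above the mRNA-seq point in every panel except that of *nct*.

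The ligand *Dl*, a transmembrane protein that activates Notch on the neighbouring cell, had 29.6, 59.1, 268, 113, 36.8 and 45.9 FPKM in miCLIP T1 to T6, against 32.8, 32.8, 90.2, 33.8, 7.0 and 5.81 FPKM in mRNA-seq T1 to T6. Both assays were highest in T3, and *Dl* was the member with the highest miCLIP level of all in T2, T3 and T4. The log2 ratio of miCLIP over mRNA-seq, taken on FPKM + 1 here and throughout unless stated, ran -0.14, 0.83, 1.56, 1.72, 2.24 and 2.79 over T1 to T6. The ratio was thus higher in each successive timepoint, while the mRNA-seq level of *Dl* was at its lowest in T5 and T6.

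*Ser*, the second Notch ligand, had 0.0396, 0, 0.659, 17.9, 16.3 and 30.2 FPKM in miCLIP T1 to T6, against 0.186, 0.0243, 0.707, 19.6, 7.85 and 3.92 FPKM in mRNA-seq T1 to T6. In both assays the level was below 1 FPKM through T3 and far above it in T4. The 0 in miCLIP T2 allows a level of up to 0.0983 FPKM (3 reads), and mRNA-seq T2 held 5 reads on the gene, so a difference was not detectable there. For the 3 timepoints in which both assays reached an FPKM of 1, the log2 ratio was -0.12 (T4), 0.96 (T5) and 2.67 (T6). Without a pseudocount the ratio was -0.10 in T3 (interval -0.56 to 0.35) and -0.13 in T4 (interval -0.25 to -0.01), so the assays gave *Ser* nearly the same level in both of these timepoints.

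*neur* encodes the E3 ubiquitin ligase that drives endocytosis of Delta in the signal-sending cell. It had 26.4, 23.4, 136, 65.9, 15.3 and 30.8 FPKM in miCLIP T1 to T6, against 23.6, 24.0, 94.1, 40.3, 8.64 and 7.94 FPKM in mRNA-seq T1 to T6. Its course was like that of *Dl*, with a sharp peak in T3, but from T2 on its ratio was lower than that of *Dl*, at 0.16, -0.03, 0.53, 0.70, 0.76 and 1.83 in T1 to T6. In a later annotation, 38.8% of the exonic bases of *neur* lie opposite the antisense RNA gene *CR31429*, which had 127 FPKM in miCLIP T3 and 135 FPKM in mRNA-seq T3. The mRNA-seq kit was stranded, but the strand setting of the counting is not given in the sources used here, so reads of the pair cannot be told apart.

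The receptor gene *N* had 32.3, 25.6, 66.8, 73.9, 31.2 and 40.3 FPKM in miCLIP T1 to T6, against 11.7, 18.0, 26.8, 36.6, 6.57 and 4.44 FPKM in mRNA-seq T1 to T6. Both assays were highest in T4. After T4 the mRNA-seq level of *N* was 2.31 lower in T5 on the log2 scale, the largest such step of the 10 genes, and the miCLIP level was 1.22 lower. Log2 ratios of *N* were 1.39, 0.49, 1.29, 1.0, 2.09 and 2.93 over T1 to T6. The T4 value lay just inside the 2-fold limit, and without a pseudocount it was 1.01 (interval 0.97 to 1.06), on the limit within counting error.

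*fng* encodes a glycosyltransferase that extends O-linked fucose on the Notch extracellular domain and alters its response to each ligand. It had 0, 0, 2.61, 21.3, 28.5 and 43.0 FPKM in miCLIP T1 to T6, against 0.450, 0.138, 1.24, 27.0, 20.6 and 14.4 FPKM in mRNA-seq T1 to T6. It was below 1 FPKM in both assays in T1 and T2 and above it in both in T3. The miCLIP zeros allow up to 0.168 FPKM in T1 and 0.278 FPKM in T2, and the T1 limit is below the mRNA-seq value of that timepoint, which rests on 36 reads. From T4 on the deposited values were higher at each timepoint in miCLIP and lower at each timepoint in mRNA-seq, although the miCLIP direction between T4 and T5 turned under other scalings of the libraries. Its log2 ratio over T3 to T6 was 0.69, -0.33, 0.45 and 1.51.

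The metalloprotease gene *kuz*, whose product makes the first, extracellular cut of the ligand-bound receptor, had 26.8, 43.3, 98.4, 75.7, 109 and 80.2 FPKM in miCLIP T1 to T6, against 22.4, 21.6, 26.8, 27.6, 16.8 and 11.7 FPKM in mRNA-seq T1 to T6. Its mRNA-seq level varied least of the 10 genes, by 2.35-fold between T4 and T6, and its miCLIP level by 4.07-fold between T5 and T1. Its log2 ratio was 0.25, 0.97, 1.84, 1.42, 2.63 and 2.67 in T1 to T6, and in T3 it was the highest of the 9 members compared. In T5 and T6 *kuz* was the member with the highest miCLIP level.

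*nct* encodes Nicastrin, a subunit of gamma-secretase, the complex that makes the cut within the membrane. It had 24.6, 43.1, 46.9, 27.7, 14.7 and 9.14 FPKM in miCLIP T1 to T6, against 46.8, 41.8, 39.2, 25.1, 15.4 and 17.6 FPKM in mRNA-seq T1 to T6. The range of its ratio was the narrowest of the 10 genes, at -0.90, 0.05, 0.26, 0.14, -0.06 and -0.88 in T1 to T6. As deposited it was the only member that was over 2-fold apart in no timepoint, but with the libraries scaled to equal sums, centred on the median of all genes or scaled per 1000000 reads its T1 ratio was -1.47, -1.18 and -1.28. It was also the only member with a miCLIP level below its mRNA-seq level in T6. In a later annotation 12.9% of its exonic bases lie opposite *HDAC11*, which had 48.6, 21.4, 24.9, 13.7, 2.46 and 1.17 FPKM in miCLIP T1 to T6, against 7.65, 6.36, 5.69, 4.14, 1.80 and 2.29 FPKM in mRNA-seq T1 to T6. *HDAC11* was thus over 2-fold higher in miCLIP in T1 to T4, and reads of this pair cannot be told apart either.

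Among the nuclear factors, *Su(H)* had 54.7, 28.1, 56.9, 27.1, 21.5 and 23.9 FPKM in miCLIP T1 to T6, against 18.5, 19.3, 20.1, 12.3, 4.59 and 4.41 FPKM in mRNA-seq T1 to T6. The mRNA-seq level was nearly flat over T1 to T3 and lower after that, whereas the miCLIP level in T2 lay well below those in T1 and T3. Its log2 ratio ran 1.51, 0.52, 1.45, 1.08, 2.01 and 2.20 over T1 to T6. As deposited *Su(H)* was over 2-fold higher in miCLIP in 5 of 6 timepoints, more than any other member, but in 3 with equal sums (4 for *Dl* and *kuz*) and in 4 per 1000000 reads, the same number as for *N*, *Dl* and *kuz*.

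*mam*, the co-activator, had 4.32, 19.2, 24.9, 39.1, 62.4 and 56.9 FPKM in miCLIP T1 to T6, against 7.15, 7.06, 12.2, 17.6, 18.6 and 11.1 FPKM in mRNA-seq T1 to T6. It was the single member whose mRNA-seq level was highest in T5, and its miCLIP level spanned 14.4-fold. Log2 ratios of *mam* were -0.61, 1.32, 0.97, 1.11, 1.70 and 2.25 in T1 to T6. The T1 and T2 mRNA-seq levels were nearly equal, so the step between the first ratios lies in the miCLIP values.

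*H*, the adaptor through which Su(H) represses targets, had 28.6, 36.0, 35.4, 29.0, 25.5 and 27.9 FPKM in miCLIP T1 to T6, against 26.0, 25.6, 18.2, 14.7, 6.53 and 7.04 FPKM in mRNA-seq T1 to T6. Its miCLIP level was the flattest of all, with 1.41-fold between highest and lowest, while its mRNA-seq level spanned 3.98-fold. The log2 ratio was 0.13, 0.48, 0.92, 0.93, 1.81 and 1.84 in T1 to T6.

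Within timepoints, members were compared where both assays reached an FPKM of 1, which held for 55 of the 60 pairs of member and timepoint. In 26 of these 55 pairs miCLIP was over 2-fold higher (a log2 ratio over 1) and in 0 it was over 2-fold lower. Without T6 this was so in 17 of 45 pairs. In T1, 2 of 8 members were over 2-fold higher (*Su(H)* and *N*), beside 24.8% of all genes, and in T2 1 of 8 (*mam*), beside 11.8%, so the members were called about as often as all genes in these timepoints. In T3 the count was 4 of 9 (*kuz*, *Dl*, *Su(H)* and *N*), beside 9.96% of all genes, and in T4 4 of 10 (*Dl*, *kuz*, *mam* and *Su(H)*), beside 8.14%. In T5 it was 6 of 10 (*kuz*, *Dl*, *N*, *Su(H)*, *H* and *mam*), beside 14.3%, and in T6 9 of 10, beside 20.6%. Over 2-fold lower were 0 members in every timepoint, beside 16.3%, 10.8%, 6.63%, 7.26%, 16.5% and 27.3% of all genes in T1 to T6.

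The median log2 ratio of the members compared was 0.15, 0.50, 0.97, 0.96, 1.76 and 2.23 in T1 to T6, while that of all genes was 0.28, 0.01, -0.08, -0.07, -0.07 and -0.16. Among genes whose mRNA-seq level lay within the range of the members, the share over 2-fold higher was 10.2% (T3), 5.59% (T4), 16.9% (T5) and 28% (T6). The median log2 ratio of these genes was -0.07 (T3), -0.08 (T4), 0.09 (T5) and 0.23 (T6). In T1 the members' median was below that of all genes, and from T2 on above it. The directions of *H*, *neur* and *kuz* in T1 and of *nct* in T2, T4 and T5 turned under other scalings.

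**Figure D2:**
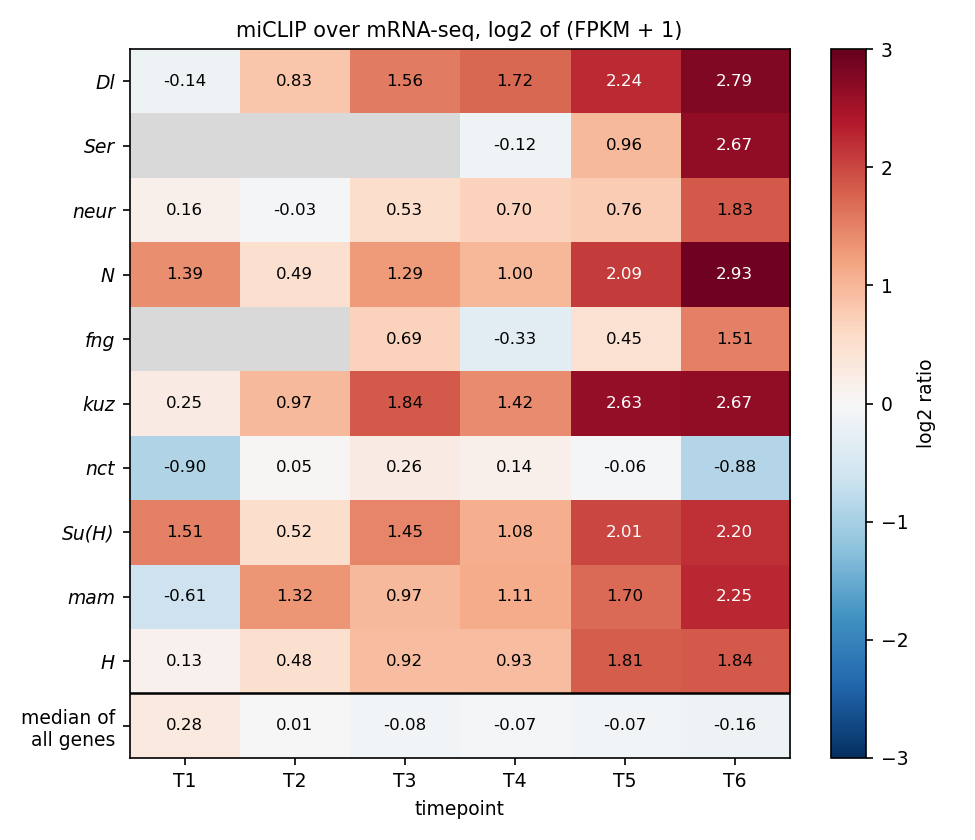
Log2 ratio of miCLIP over mRNA-seq, on FPKM + 1, for each gene (rows) and timepoint (columns), with the median of all genes compared in the bottom row. Red is higher in miCLIP, blue is lower, and grey marks pairs with an FPKM under 1 in either library. The members' colours deepen toward T6, up to 2.93 for *N*, while the bottom row stays between -0.16 and 0.28, and *nct* stays between -0.90 and 0.26. The bottom row does not show the spread of all genes, whose upper decile was 0.88 in T4 and 1.86 in T6.

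Taken over the 6 timepoints as pairs of libraries, the assays were also compared by a limma fit over 10655 genes with the timepoint as a block, which asks for a difference shared by the timepoints. These timepoints are different stages and not replicates, so the error of the fit includes the change of the ratio between stages. miCLIP was higher for 3 of 10 members at an adjusted p under 0.05, beside 4.2% of all genes higher, and lower for 0, beside 0.91% lower. At an unadjusted limma p under 0.05 there were 7 of 10 members, each higher in miCLIP, beside 2396 of 10655 genes in either direction. The log2 difference was 1.46 for *Su(H)* (SE 0.28, limma adjusted p = 0.023), 1.63 for *kuz* (SE 0.35, limma adjusted p = 0.033) and 1.53 for *N* (SE 0.33, limma adjusted p = 0.036), and each was higher in miCLIP in 6 of 6 timepoints. *Dl* had 1.50 (SE 0.37, limma adjusted p = 0.057), with 5 of 6 timepoints higher, and the other 6 members had adjusted p from 0.088 to 0.67. The 3 calls changed with the pair left out and with the scaling. Of the members, 0 passed without T6, 0 without T3, T4 or T5, and 0 with equal sums. By contrast, 2 passed without T2, 4 when centred on the median of all genes and 6 without T1. Calls over all genes changed too. From 447 higher in the full fit they went to 274, 194, 187 and 200 without T6, T3, T4 and T5, and to 347 with equal sums. They were 311 without T2, 478 when centred and 630 without T1. The unadjusted limma p was under 0.05 for 6 members without T6, 6 without T3, 6 without T4, 5 without T5 and 4 with equal sums. Beside these stood 1984, 1919, 1946, 1773 and 2782 of the 10655 genes, in the same order and in either direction. Without T6, *Su(H)* was the nearest to the threshold and had a limma adjusted p of 0.060.

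The largest ratios lay late in embryogenesis. The log2 ratio was highest in T6 for 9 of 10 members and, with T6 left out, highest in T5 for 8, the exceptions being *nct* and *fng*. The share of all genes with their highest ratio in T6 was not counted. The spread over all genes widened too. Its lower and upper deciles were -0.87 and 0.88 (T4), -1.34 and 1.26 (T5) and -2.11 and 1.86 (T6). By percentile among all genes compared, *Dl*, *Su(H)*, *H*, *mam*, *nct* and *kuz* ranked lower in T6 than in T4, and the other members higher. The members' log2 ratio was higher in T5 than in T4 for 9 members, with a median difference of 0.83 over the members and 0.03 over all genes. By over 2-fold it was higher for 3 members (*kuz* by 1.21, *N* by 1.10 and *Ser* by 1.09), beside 10.2% of all genes, and by over 2-fold lower for 0, beside 11%. Between T6 and T4 it was over 2-fold higher for 8 members, beside 19% of all genes, and over 2-fold lower for 1, *nct* (by 1.02), beside 20.1%. Set against mRNA-seq T5 in place of T6, miCLIP T6 was still over 2-fold higher for 9 of 10 members, beside 14.2% of all genes, from 2.55 for *Dl* to 1.02 for *fng*, and *nct* was at -0.69, with 0 over 2-fold lower beside 19.5%.

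Between neighbouring timepoints, the number of members past 2-fold in mRNA-seq was highest from T4 to T5. From T1 to T2, 0 of 8 members changed by over 2-fold, beside 0.352% of all genes higher and 5.74% lower. From T2 to T3, *neur* (1.93) and *Dl* (1.43) were over 2-fold higher, 2 of 9 members beside 20.8% of all genes. From T3 to T4, *fng* (3.65) and *Ser* (3.59) were over 2-fold higher, 2 of 10 beside 24.9%, and *Dl* (-1.39) and *neur* (-1.20) over 2-fold lower, 2 of 10 beside 11.2%. From T4 to T5, 6 of 10 were over 2-fold lower, beside 9.35% of all genes: *N* (-2.31), *Dl* (-2.12), *neur* (-2.10), *Su(H)* (-1.25), *Ser* (-1.22) and *H* (-1.06). None was over 2-fold higher, beside 34.1% of all genes, and *mam* (0.07, a direction that turned under other scalings) was the single member not lower. From T5 to T6, 0 members changed by over 2-fold, beside 16.2% higher and 10.5% lower of all genes.

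The same steps were taken in miCLIP, where the number past 2-fold was highest from T2 to T3 and from T3 to T4. From T1 to T2, *mam* (1.92) was over 2-fold higher, 1 of 8 beside 34% of all genes, and from T2 to T3 *neur* (2.50), *Dl* (2.16), *fng* (1.85), *N* (1.35) and *kuz* (1.17) were, 5 of 9 beside 33.4%. From T3 to T4, *Ser* (3.51) and *fng* (2.62) were over 2-fold higher, 2 of 10 beside 23.3%, and *Dl* (-1.23), *Su(H)* (-1.05) and *neur* (-1.04) over 2-fold lower, 3 of 10 beside 12.5%. From T4 to T5, 3 of 10 were over 2-fold lower, beside 20.5% of all genes: *neur* (-2.03), *Dl* (-1.60) and *N* (-1.22). From T5 to T6, 0 members changed by over 2-fold, beside 18.5% higher and 20.9% lower of all genes. The timepoint of the highest level was the same in both assays for 5 members (*Dl*, *neur*, *N*, *Su(H)* and *mam*) and later in miCLIP for the other 5, as deposited. Under other scalings the highest miCLIP timepoint of *N*, *Ser*, *Su(H)*, *nct* and *kuz* was an earlier one.

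**Figure D3:**
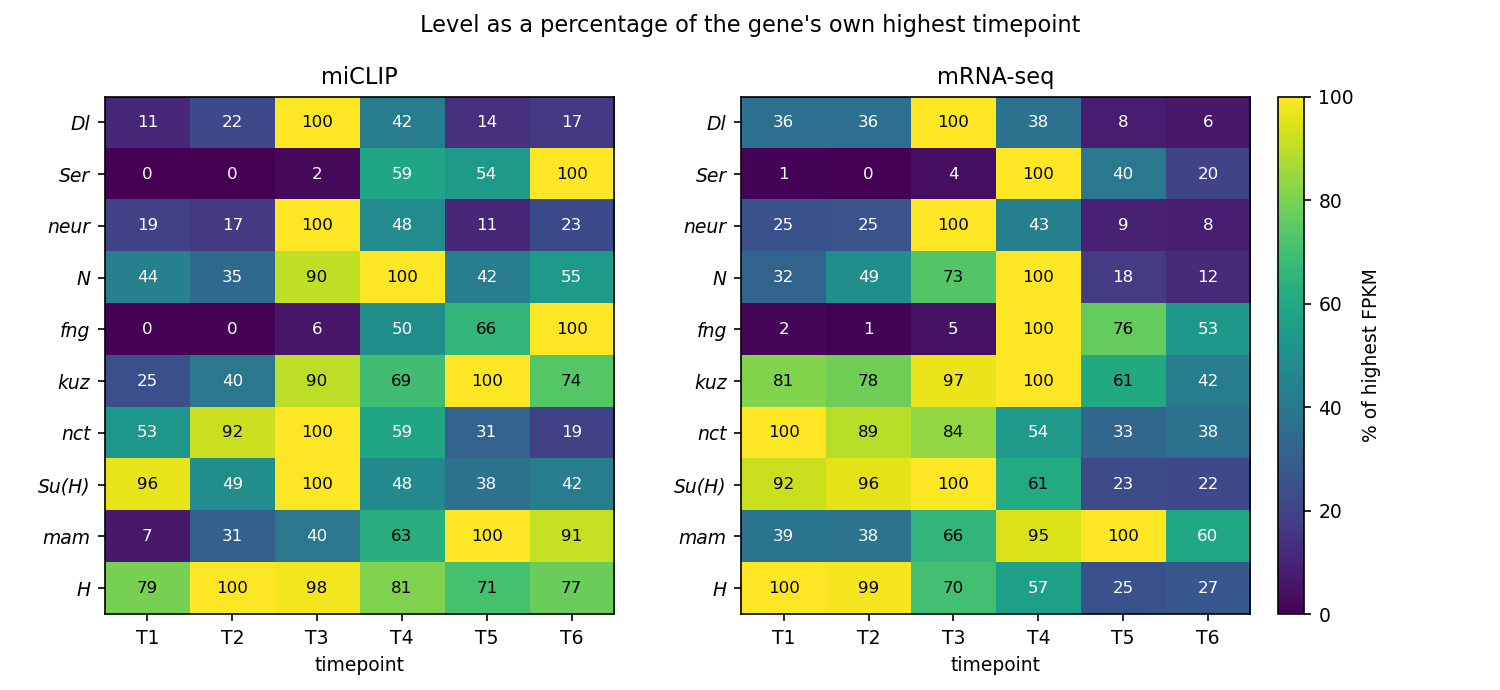
Level of each gene (rows) in each timepoint (columns) as a percentage of its own highest FPKM, for miCLIP (left) and mRNA-seq (right), with 100 at the highest timepoint. In mRNA-seq most rows are darkest in T5 and T6 (*N* at 18 and 12% of its highest level), while in the same timepoints the miCLIP rows of *H* (71 and 77%), *mam* (100 and 91%) and *kuz* (100 and 74%) stay bright.

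Over the 6 mRNA-seq timepoints, likeness of course was measured as the Euclidean distance between log2 profiles, each centred on its own mean, among 11025 genes. Each the nearest member of the other were *H* and *nct* (0.49), *Dl* and *neur* (0.83), and *Ser* and *fng* (1.37). The nearest member was *H* for *Su(H)* (0.56), *nct* for *kuz* (1.11), *neur* for *N* (1.32) and *kuz* for *mam* (1.58). The number of genes of the table that lay closer than the nearest member was 6 for *neur*, 7 for *Dl*, 65 for *H*, 69 for *Su(H)* and 81 for *Ser*. It was 99 for *fng*, 110 for *N*, 156 for *nct*, 1586 for *kuz* and 2953 for *mam*. The nearest gene overall was *nmo* for *N* (0.70), *CG8526* for *Dl* (0.52), *stan* for *Ser* (0.39), *mei-S332* for *Su(H)* (0.22) and *ADD1* for *H* (0.18). It was *Chc* for *mam* (0.17), *CR31429* for *neur* (0.14), *mnb* for *nct* (0.12), *Fbl6* for *kuz* (0.19) and *CG32813* for *fng* (0.41). *CR31429* is the antisense neighbour of *neur* named above.

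Of 43 further genes of the pathway, 40 were found in the table. Over 2-fold higher in miCLIP were 4 of 25 compared (T1), 9 of 35 (T2), 1 of 38 (T3), 2 of 40 (T4), 14 of 39 (T5) and 13 of 38 (T6), beside 24.8%, 11.8%, 9.96%, 8.14%, 14.3% and 20.6% of all genes. In T1, T3 and T4 this share was below that of all genes. Over 2-fold lower were 5, 7, 1, 1, 2 and 0, beside 16.3%, 10.8%, 6.63%, 7.26%, 16.5% and 27.3% of all genes. The limit of 1 FPKM in both assays left out 11, 1, 1, 0, 1 and 2 genes in T1 to T6 that reached it in mRNA-seq alone, of which 11, 1, 0, 0, 1 and 2 were over 2-fold lower in miCLIP, so the 0 in T6 holds for the genes compared. Against mRNA-seq T5, miCLIP T6 was over 2-fold higher for 14 of 38 of these genes, beside 14.2% of all genes, and lower for 0, beside 19.5%, with a median of 0.66. Their median log2 ratio was 0.17, 0.32, -0.13, 0.06, 0.42 and 0.63 in T1 to T6. In T3 to T6 these medians lay below those of the 10 core genes.

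The other gamma-secretase subunits differed in direction among themselves and over time. *Psn*, the catalytic subunit, had log2 ratios of 0.17, -0.64, -0.69, -0.03, -1.13 and 0.54 over T1 to T6. *aph-1* was below 0 in all 5 timepoints compared and had 0.510 FPKM in miCLIP T1 against 49.7 FPKM in mRNA-seq T1. *pen-2*, also of this complex, was at -3.54, -1.06, 0.09, 0.28, 1.10 and 1.17 over T1 to T6. The metalloprotease gene *Kul*, a relative of *kuz*, was at -0.33, 0.20 and 0.95 over T4 to T6. None of the 5 genes of Notch glycosylation and folding (4 compared in T5 and in T6) was over 2-fold higher in T3 to T6. Beside this stood 9.96%, 8.14%, 14.3% and 20.6% of all genes. *rumi*, the O-glucosyltransferase, was at -1.28 in T3 and had 0 FPKM in miCLIP T6 against 4.58 FPKM in mRNA-seq T6. *O-fut1*, the O-fucosyltransferase, had 0.338 FPKM in miCLIP T5 against 10.6 FPKM in mRNA-seq T5. *O-fut2* was at 0.89 in T1 and 1.65 in T2, and stayed between -0.37 and 0.41 over T3 to T6.

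Among genes of receptor trafficking and ubiquitination, 4 of 8 were over 2-fold higher in T5, 4 in T6, and 4 in miCLIP T6 against mRNA-seq T5. Beside these stood 14.3%, 20.6% and 14.2% of all genes, in the same order. *spdo*, which encodes a membrane protein needed for Notch signalling in asymmetric divisions, had 0, 0, 22.5, 77.7, 18.0 and 21.1 FPKM in miCLIP T1 to T6, against 0.424, 0.790, 22.8, 46.4, 3.63 and 2.11 FPKM in mRNA-seq T1 to T6. Its log2 ratio was -0.02, 0.73, 2.04 and 2.83 over T3 to T6, higher in each successive timepoint as for *Dl*, and miCLIP T6 was at 2.26 against mRNA-seq T5. *bib*, a neurogenic gene that encodes a membrane channel, had the highest median of this list, with 0.82, 1.48, 1.74 and 1.48 over T3 to T6. *numb*, which encodes a Notch antagonist inherited by one daughter cell, was between 0.91 and 1.11 in all 6 timepoints. *Su(dx)*, an E3 ubiquitin ligase for Notch, was at -0.52 in T5 and -0.92 in T6. Of the nuclear co-factors *nej*, the CBP acetyltransferase, was at 1.41 in T3, 2.52 in T5 and 1.70 in T6, while *CtBP*, a co-repressor that binds Hairless, stayed between -0.26 and 0.86.

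All of the *E(spl)* complex bHLH genes and Bearded family genes found had their highest mRNA-seq level, as deposited, in T3 or T4. The 7 bHLH repressor genes of the *E(spl)* complex had a median log2 ratio of 0.30 in T3 and -0.04 in T4. Over 2-fold higher were 0 in either timepoint, beside 9.96% (T3) and 8.14% (T4) of all genes. Their median was 1.18 in T5, 0.95 in T6 and 1.23 for miCLIP T6 against mRNA-seq T5. *E(spl)m8-HLH* had 0.331, 13.2, 87.9, 52.2, 18.2 and 9.53 FPKM in miCLIP T1 to T6, against 2.18, 4.15, 69.3, 54.9, 5.23 and 3.23 FPKM in mRNA-seq T1 to T6. *E(spl)mbeta-HLH*, with the lowest median of this list, had log2 ratios of -1.07 in T4 and -2.10 in T5. The 8 Bearded family genes found, whose products antagonize Neuralized, had medians of -0.41, 0.00, 0.99 and 0.34 over T3 to T6, and of 1.27 for miCLIP T6 against mRNA-seq T5. *E(spl)malpha-BFM* had -0.10, -0.49, 1.76 and 0.17 over T3 to T6, and *BobA* -0.67, 0.08 and 0.61 over T3 to T5. Of the 3 genes of ligand endocytosis found, 0 were over 2-fold higher before T6, beside 8.14% to 24.8% of all genes in T1 to T5. In T6 *lqf*, the epsin gene needed for ligand uptake, was at 1.10 (0.65 against mRNA-seq T5), beside 20.6% of all genes over 2-fold higher. *mib1*, the other E3 ligase for the ligands, was at -0.54, -0.23, -0.43 and 0.68 over T3 to T6.

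**Figure D4:**
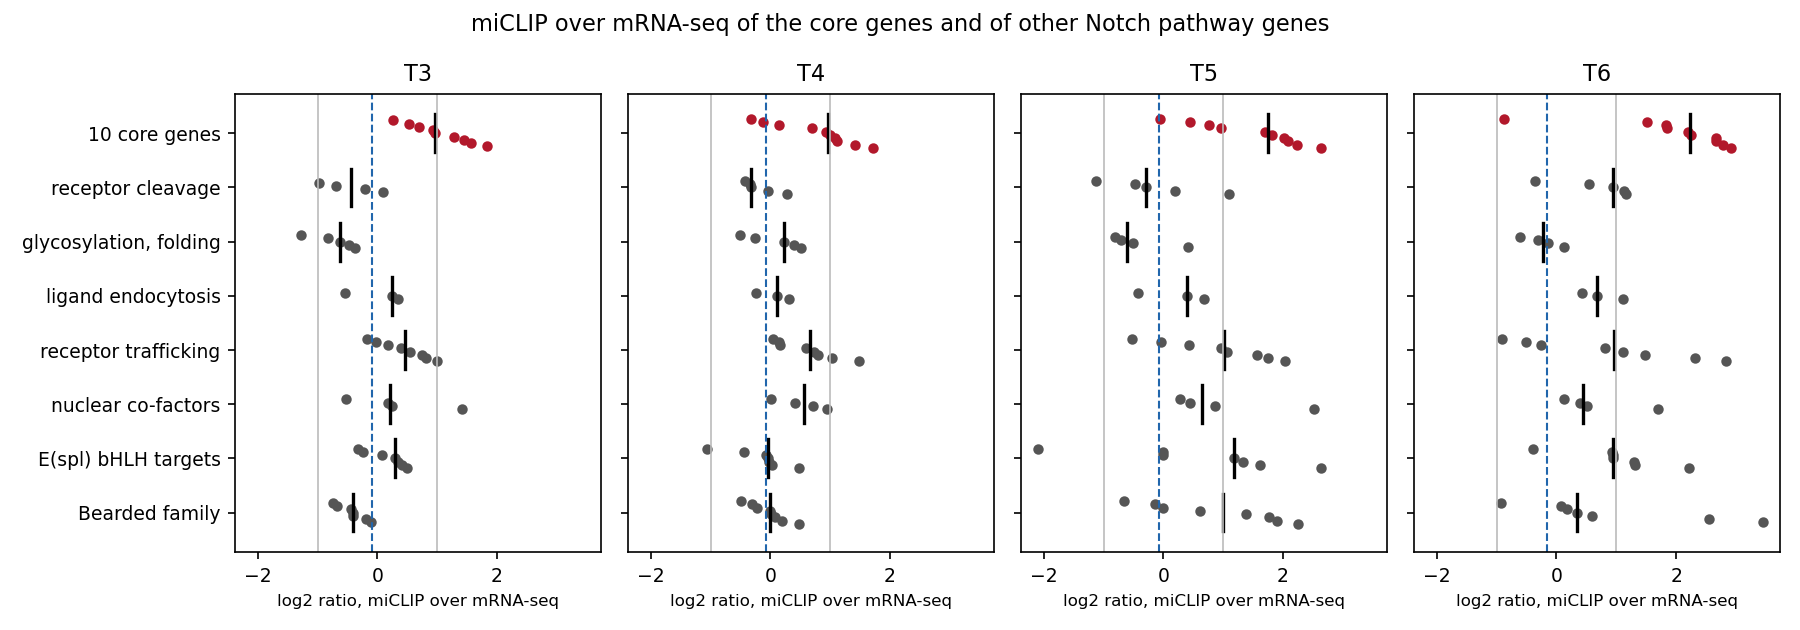
Log2 ratio of miCLIP over mRNA-seq (x axis, the same scale in each panel) in T3 to T6 for the 10 core genes (red, top row) and 7 lists of other pathway genes (grey), each point 1 gene that reached an FPKM of 1 in both assays. Black bars are list medians, the dashed blue line is the median of all genes and grey lines mark 2-fold. The core genes' median moves to 1.76 in T5 and 2.23 in T6, to the right of every other list in these panels.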

How the data were processed

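The authors deposited 1 table of FPKM, with a row per gene and a column for each of 12 libraries. Per the study's methods, the authors mapped reads of both assays to genome release r5.45 with Subread-align, counted them per gene with featureCounts and normalized them with DESeq. miCLIP reads had been freed of PCR duplicates, and mRNA-seq used a stranded kit. Gene lengths, library factors and the strand setting are not given in the sources used here. Library sums were not fixed and were higher in T6 than in T1, and 0 value columns had no library.

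Reads were recovered from the steps of single reads in each gene's values, for all 13982 genes with a read (Python 3.11.15, numpy 2.4.6, pandas 2.3.3, scipy 1.17.1). On simulated data 99.8% of 10978 genes came out exact. In simulated miCLIP T3 over mRNA-seq T3 (7537 genes) 100 of 100 genes raised 4-fold, 88 of 100 lowered and 0 of 6846 unchanged were called. Those libraries were simulated with counting error only, and the unchanged genes had at least 100 mRNA-seq reads. The 0 therefore does not measure calls that come from variation between libraries or assays. Both assays were also compared over the 6 timepoints as pairs with limma 3.58.1 (R 4.3.3) on log2(FPKM + 1), with the timepoint as a block (aliquots of the same RNA pair the libraries), a trended prior and Benjamini-Hochberg adjustment over the 10655 genes that averaged 1 FPKM or more. On simulated data of this design 57 of 100 genes raised 4-fold, 60 of 100 lowered and 8 of 10455 unchanged were called. Log2 ratios used a pseudocount of 1, which understates the change of low genes, and genes that reached an FPKM of 1 in both libraries, or in either library between timepoints. The members and lists were chosen with earlier results of these data known. All 10 members are named, and of each list the genes with the highest and lowest median log2 ratio, plus *Psn*, *pen-2*, *O-fut1*, *spdo* and *numb*, chosen after their values were seen. *AP-2alpha*, *BobB*, *BobC* and the marker *Mhc* were not matched. Overlaps come from an Ensembl annotation of the later BDGP6 assembly. Alternatives were other pseudocounts, filters and scalings, and 5 chosen after seeing the data (at least 20 recovered reads in both libraries, per 1000000 reads on genes, miCLIP T6 against mRNA-seq T5, the alternatives for miCLIP steps and the paired fit with its alternatives).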

Additional observations from a re-analysis of the deposited data

Results flagged for a closer look

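For 5 members the log2 ratio of miCLIP over mRNA-seq without a pseudocount lay on opposite sides of 0 in different timepoints, with counting intervals that exclude 0 in both; the difference was not tested, since each timepoint has 1 library per assay. For *Dl* it was -0.15 in T1 and 2.98 in T6, for *Ser* -2.23 in T1 (2 miCLIP reads and 42 mRNA-seq reads) and 2.95 in T6, and for *mam* -0.73 in T1 and 2.35 in T6. For *fng* it was -0.34 in T4 and 1.58 in T6, and for *nct* 0.26 in T3 and -0.95 in T6. The value of *nct* was also below 0 in T1, at -0.92 (interval -1.04 to -0.81). In each of the 5 pairs 1 of the values rests on the T6 libraries, and for *Dl*, *Ser* and *mam* the other rests on the T1 libraries, whose assays correlated least of all timepoints (Spearman 0.59 over 4802 genes). Against mRNA-seq T5, on FPKM + 1, miCLIP T6 was at 2.55 for *Dl*, 1.82 for *Ser*, 1.57 for *mam*, 1.02 for *fng* and -0.69 for *nct*.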

How the results depend on the processing

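With every library scaled to the same sum, 2 members were over 2-fold apart in T1 (0 higher and 2 lower in miCLIP, against 2 higher as reported), 2 in T4 (against 4) and, between mRNA-seq T6 and T5, 2 (against 0), both lower in T6. Centring on the median of all genes, and scaling per 1000000 reads on genes, each gave 3 in T1 (2 higher and 1 lower), and scaling per 1000000 reads also gave 2 in T4. A pseudocount of 0.01 gave 2 in T2 (against 1). In miCLIP, 2 members passed 2-fold from T1 to T2 (against 1) with equal sums or per 1000000 reads (both higher) or centred (1 higher and 1 lower), and from T5 to T6 1 was higher (against 0) with a pseudocount of 0.1, centred or per 1000000 reads. In the paired fit over timepoints, 0 members passed with equal sums, 1 without the timepoint as a block, and 0 to 6 with each pair left out (against 3). The other 88 of 108 counts under alternatives stayed within 1.5 times the reported one in each direction, and no sign turned in a called value. Scaling to the same sum moved the median log2 ratio of all genes by -0.55 (T1), -0.39 (T2), -0.12 (T3), -0.31 (T4) and 0.09 (T6), and 6 members lower from T4 to T5 in mRNA-seq became 9 (8 when centred or per 1000000 reads). The FPKM sum was 455696 in mRNA-seq T4 and 782408 in mRNA-seq T5, so equal sums lower the T5 values of all genes relative to T4. For the rescaled counts of members, the shares of all genes under the same scaling are not given here. In the steps between timepoints, signs turned under a scaling for *Su(H)* and *neur* (T1 to T2), *Su(H)* and *kuz* (T2 to T3), *kuz* (T3 to T4), *mam* (T4 to T5) and *H* and *nct* (T5 to T6) in mRNA-seq, and for *nct* (T2 to T3), *N* (T3 to T4), *kuz* and *fng* (T4 to T5) and *Su(H)* and *H* (T5 to T6) in miCLIP. The 3 reads of counting floor limit *Ser* and *fng* in T1 and T2, and counting intervals leave out the variation between embryo collections.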
